A study of Mus musculus with 2 samples.

Results

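The protein kinase LCK and 8 other proteins that carry the signal of the T cell receptor just inside the membrane were followed at the transcript level in spleen T cells with and without the arginine methyltransferase PRMT5. The genes were Lck, Fyn, Zap70, Lat, Lcp2, Plcg1, Prkcq, Malt1 and Ptprc, taken as all rows of the gene table with one of these symbols, which gave 9 of 30905 genes. The set was selected on the UMI counts of Lck in the CKO and control libraries, whose difference was already known, so that difference is a description and carries no test.

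Sorted CD3+ cells from mouse spleen were profiled with the droplet method of 10x Genomics, 3′ chemistry V3.1, in 1 library titled Prmt5-CKO and 1 titled control. The CKO mice are C57BL/6, carry a CD4-Cre transgene and have both Prmt5 alleles floxed (CD4-Cre+ PRMT5fl/fl), so that Prmt5 is deleted from the thymic stage at which CD4 is first made, and T cells that never pass it can keep the gene. The genotype entry of the control sample is identical to that of the CKO sample, and the groups here rest on the titles alone, so whether the control mice carry Cre or floxed alleles is not known here. No treatment or age is given. The design text names 3 mice per group, pooled without a map from cells to mice, so each library is 1 sample, and genotype and library cannot be told apart. All intervals are exact at 95% and cover counting error only.

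The receptor of αβ T cells has no enzyme of its own. LCK, which rides on the CD4 and CD8 coreceptors, and its relative FYN phosphorylate the CD3 chains, and ZAP-70 docks there and phosphorylates the scaffold LAT. LAT and the adaptor SLP-76 (gene Lcp2) gather phospholipase C gamma 1 (Plcg1), whose products release calcium and activate protein kinase C theta (Prkcq), and the latter leads through BCL10 and the protease MALT1 to NF-κB. The phosphatase CD45 (Ptprc) keeps LCK ready by removing an inhibitory phosphate, which the kinase CSK adds back.

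Lck (ENSMUSG00000000409) lies at chr4:129548344-129573641 on the minus strand of mm10. It has a start used mainly in thymocytes close to the coding exons and another far upstream that is used in mature T cells. RefSeq on GRCm38.p6 places them 15269 bases apart. Tags at the 3′ end count transcripts of both starts together, so the data give Lck as a sum over them. The 30 bases before each start are shown because they lie in the part of the gene where the starts differ. The capitals mark CAGGAAGT, a motif of the kind bound by ETS factors.
Lck upstream start, chr4:129573642-129573671: ctgcagagccctcaggagaCAGGAAGTcag
Lck downstream start, chr4:129558373-129558402: gcctcctgtgaacttggtgcttgagggctc
Searched on both strands in windows of 300 bases around the starts, CAGGAAGT occurred in 3.33% of 32851 windows. Among the 8 members with a window it was found for Lck, around both starts, and for Ptprc. The motif was not fixed in the plan and is the one marked in the Lck sequence above, so its presence at Lck is no result. The share is per window and the members are genes, so they are not compared. Malt1 was not among them.

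The libraries held 7567 CKO and 6620 control T cells after filtering, with 51357972 and 46713714 UMIs (unique molecular identifiers, 1 per captured transcript) and medians of 6049 and 6288.5 UMIs per cell. Levels are CPM, a gene's UMIs scaled to a fixed total of all UMIs summed over the cells of a class. Prmt5, the targeted gene, was counted 250 times in CKO and 702 times in control T cells, at levels of 4.87 and 15.03 CPM. A 3′ tag count gives the transcript level and does not check the deleted exon, which the labels do not name. Classes of cells were named from marker genes, and sorted identity held at the transcript level: the summed level of Cd3d, Cd3e, Cd3g and Trac in T cells was 3377 CPM in the CKO and 3427 CPM in the control library. The 5 B cell markers summed to 247 and 248 CPM in T cells. The 4 NK markers summed to 37.5 and 26.8 CPM and the 6 γδ markers to 180 and 66.7 CPM. The 7 effector CD8 markers summed to 2071 and 1254 CPM, and the 5 memory CD8 markers went the other way, at 247 and 365 CPM. Such sums do not separate the number of cells from the level per cell. By number, γδ-like cells were 102 in CKO and 16 in control, and effector-like CD8 cells 147 and 45. Memory-like CD8 cells were 190 and 456. The part of these classes in the sums over all T cells was not tested. The libraries shared 11 cell barcodes, and each held cells with Y-linked UMIs and cells with Xist UMIs, so both sexes were pooled.

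Lck was the member with the largest difference over all T cells. CKO cells held 55700 Lck UMIs, a level of 1085 CPM (1076 to 1094), where control cells held 21154, a level of 453 CPM (447 to 459). The ratio of CKO over control was 2.39 (2.36 to 2.43), a log2 ratio of 1.26, and ranked 6 from the highest of 4783 measured genes, those averaging 20 CPM or more over the libraries. Malt1 went the other way: 3450 UMIs gave a CKO level of 67.2 CPM (65.0 to 69.5), and 4909 UMIs a control level of 105 CPM (102 to 108). That is 1.56-fold lower in CKO (log2 −0.65), rank 15 from the lowest. Lck and Malt1 were past 1.5-fold, 2 of 9 members, where 1.42% of all measured genes were past it, 0.983% higher and 0.439% lower. Past 2-fold was Lck alone, 1 of 9, beside 0.23% of measured genes. The choice of members used this contrast, so nothing is read from these counts.

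The other 7 members lay within a narrow band around equality. Fyn, the other Src family kinase of the set, was at 162 CPM in CKO and 169 CPM in control cells (log2 −0.06). Zap70 was at 104 and 108 CPM (log2 −0.06) and Plcg1 at 37.3 and 39.3 CPM (log2 −0.07). Both of the last had intervals that reach equality. Lat, the scaffold, was at 568 and 517 CPM (log2 0.14, 0.11 to 0.16). Lcp2 was at 112 and 113 CPM (log2 −0.01), and Prkcq at 156 and 164 CPM (log2 −0.07, −0.12 to −0.03). Ptprc was at 1037 and 1000 CPM (log2 0.05), a direction that turns to −0.002 when mitochondrial and ribosomal protein genes are left out of the total. The size of the difference in Lck was thus not seen in Fyn, nor in Zap70, the next kinase in the chain. The intervals of Lck, Lat and Ptprc lay above equality and those of Fyn, Prkcq and Malt1 below, 3 and 3 of 9, beside 43.2% above and 19.7% below among all measured genes. The median over all measured genes was 0.05, with the middle of the genes between −0.05 and 0.16.

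**Figure D1:**
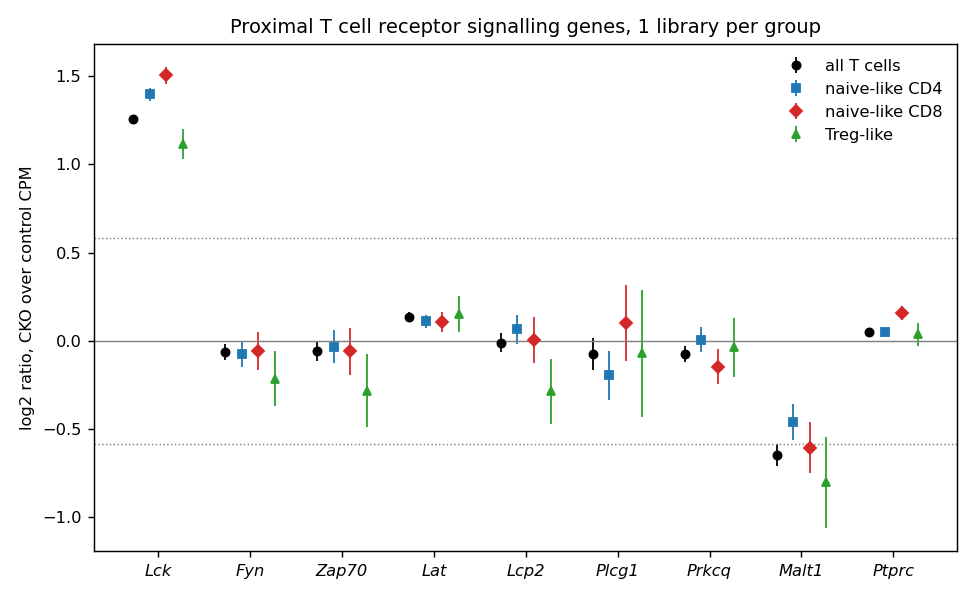
Log2 ratio of CKO over control CPM (vertical axis) for the 9 genes (horizontal axis) in all T cells and 3 classes, points with exact 95% intervals, 1 library per group. Lck lies above the upper dotted line, which marks 1.5-fold, in each of the 4 groups of cells, and Malt1 lies near or below the lower one.

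Lck was higher in the CKO library in naive cells of both lineages. In naive-like CD8 cells it was 1287 CPM (1265 to 1310) from 1302 CKO cells and 454 CPM (441 to 466) from 1541 control cells, 2.84-fold (log2 1.51), the highest ratio of 4570 measured genes. In naive-like CD4 cells it was 1179 CPM (1165 to 1192) from 4183 cells and 447 CPM (437 to 457) from 2964 cells, 2.64-fold (log2 1.40), rank 2 of 4614. In Treg-like cells it was 964 CPM (931 to 998) and 445 CPM (424 to 467), 2.17-fold (log2 1.12), rank 19 of 5106. The counting intervals of the libraries did not overlap in any of these classes. Members past 1.5-fold numbered 2 of 9 in naive-like CD8 cells (Lck and Malt1), 1 of 9 in naive-like CD4 cells (Lck) and 2 of 9 in Treg-like cells (Lck and Malt1), where 2.34%, 1.54% and 4.58% of all measured genes were past it.

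The order of the classes by Lck level differed between the libraries. In the control, the highest levels were those of effector-like CD8 cells at 575 CPM (499 to 659, 45 cells) and memory-like CD4 cells at 563 CPM (532 to 595), which overlap each other. Interferon-responding-like cells at 472 CPM, memory-like CD8 at 456, naive-like CD8 at 454, naive-like CD4 at 447, Treg-like at 445 and the unnamed Fcer1g cells at 443 CPM followed with overlapping intervals. Below them, NKT-like cells at 394 CPM, proliferating-like cells at 367 CPM, the unnamed Tnfrsf9 cells at 308 CPM and γδ-like cells at 240 CPM (167 to 334, 16 cells) each overlapped the next. The naive, memory CD8 and regulatory classes were therefore not separable by Lck in the control.

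In the CKO library these classes spread out. Naive-like CD8 cells led at 1287 CPM. Memory-like CD8 cells at 1181 CPM (1129 to 1234) and naive-like CD4 cells at 1179 CPM overlapped each other, as did interferon-responding-like cells at 977 CPM and Treg-like cells at 964 CPM. The unnamed Fcer1g cells followed at 854 CPM (812 to 897), overlapping NKT-like cells at 731 CPM (583 to 905, 15 cells). Effector-like CD8 cells at 700 CPM (654 to 748), memory-like CD4 cells at 629 CPM (587 to 673), Tnfrsf9 cells at 626 CPM (581 to 675) and proliferating-like cells at 585 CPM (555 to 616) each overlapped the next. The γδ-like cells were lowest at 254 CPM (220 to 291). The effector and memory CD4 classes, highest in the control, thus stood among the lower ones in the CKO library.

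**Figure D2:**
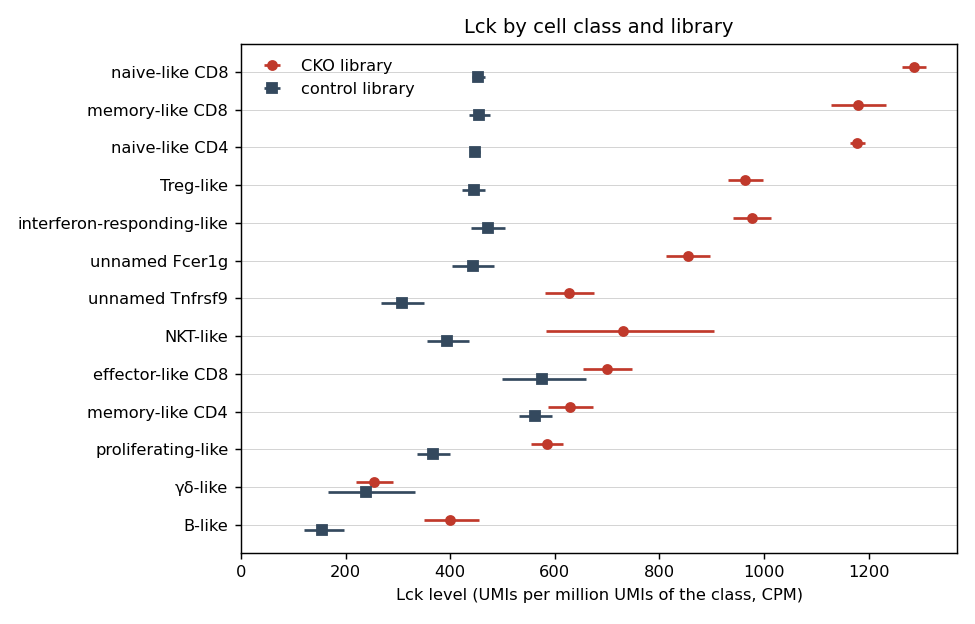
Lck level in CPM (horizontal axis, from 0) by cell class (vertical axis) in the CKO library (circles) and the control library (squares), with exact 95% Poisson intervals. The libraries lie far apart in naive-like CD8 cells (1287 and 454 CPM) and nearly coincide in γδ-like cells (254 and 240 CPM).

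As ratios, memory-like CD8 cells were with the naive classes at 2.59-fold (log2 1.37, 190 CKO and 456 control cells). Interferon-responding-like cells stood at 2.07-fold, Tnfrsf9 cells at 2.04-fold, Fcer1g cells at 1.93-fold, NKT-like cells at 1.85-fold and proliferating-like cells at 1.59-fold. Memory-like CD4 cells were at 1.12-fold (1.02 to 1.22). That class compares different clusters: 11.5 held 2 CKO and 130 control cells, 11.4 held 7 and 63, 11.7 held 6 and 50, and 11.2 held 57 and 15. The clusters well filled in both libraries, 11.1 and 11.3, gave log2 ratios of −0.00 (−0.30 to 0.30) and 0.39 (0.11 to 0.68). Effector-like CD8 cells were at 1.22-fold (1.04 to 1.42). In effector-like CD8 cells the log2 ratio of 0.28 became 0.69 when each cell was first thinned to 2000 UMIs, with 45 control cells behind it. In γδ-like cells, most of which carry a Trdc transcript, the ratio was 1.06 (0.735 to 1.56), from 201 and 35 UMIs, an interval that holds equality and values up to 1.56. Lck UMIs were found in 38 of 102 γδ-like cells of the CKO library and 9 of 16 of the control. Over 12 T cell classes, Lck was above equality by its interval in 11 and past 1.5-fold in 9. The 11 include memory-like CD4 cells, whose lower limit of 1.02 is close to equality.

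The level of Prmt5 in the memory-like and effector-like classes is given beside that of Lck. It is not given here for γδ-like and NKT-like cells. In memory-like CD8 cells Prmt5 was 10.9 CPM in CKO and 17.8 CPM in control cells (18 and 82 UMIs), an interval that reaches equality, beside the 2.59-fold difference in Lck. In memory-like CD4 cells it was 6.00 and 12.2 CPM (8 and 27 UMIs), also reaching equality, beside 1.12-fold in Lck. In effector-like CD8 cells it was 9.88 and 27.9 CPM (12 and 10 UMIs). The counts are too low to rank the classes by Prmt5.

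Within classes, the clusters that held most cells differed between libraries. Of naive-like CD4 cells, cluster 7 held 1725 CKO and 335 control cells and cluster 6 held 813 and 1449. Cluster 9, with 319 CKO and 21 control cells, had Lck among its 10 leading genes, so its own level is no result. Lck was 1350 and 488 CPM in cluster 7 (log2 1.47), 849 and 466 CPM in cluster 6 (log2 0.87) and 887 and 347 CPM in cluster 1 (log2 1.36, 898 and 812 cells). With the members and all fixed gene lists left out of the clustering, the log2 ratio in naive-like CD4 cells was 1.38. Over the other 20 clusters with at least 20 cells in each library, the log2 ratio of Lck ranged from −0.00 to 1.77, with 19 of 20 above equality by their intervals. The exception was a cluster of memory-like CD4 cells, 11.1, with 703 CPM in both libraries from 47 and 49 cells.

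The higher sum came from a broad shift over cells and from a tail. After thinning each cell to 2000 UMIs, which left out 53 CKO and 25 control cells, 80.1% (79.2 to 81.0) of CKO and 58.9% (57.7 to 60.1) of control T cells held an Lck UMI. Without thinning the shares were 96.2% and 91.8%. B-like cells, which should lack Lck, gave 22.2% (13.3 to 33.6) and 12.3% (5.47 to 22.8) after thinning, from 72 and 65 cells with median depths of 5633 and 4712 UMIs, beside 6070 and 6295 in T cells. Cd3e, the receptor chain gene, was found in 69.8% and 73.0% of T cells at the same depth. Lck per 100 UMIs of Cd3d, Cd3e and Cd3g was 41.9 in CKO and 17.6 in control T cells, and 47.3 and 24.7 in B-like cells. In B-like cells, 41 of 225 CKO and 8 of 66 control Lck UMIs came from 1 cell. Myeloid-like cells gave 14.6 and 13.9, from 26 and 11 Lck UMIs.

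Cells with 5 or more Lck UMIs at this depth made up 12.1% of CKO and 0.50% of control T cells. In naive-like CD8 cells they were 15.9% and 0.325%, and cells with no Lck UMI were 13.3% and 40.7%. In naive-like CD4 cells they were 13.2% and 0.474%, with 17.8% and 41.5% at 0. Treg-like cells had 8.44% and 0.388% at 5 or more. Memory-like CD8 cells of the CKO library had the widest spread, with 17.4% at 5 or more and 26.3% at 0, where a Poisson count with the same mean would put 9.77% at 0.

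The ratio of variance to mean, which is 1 for Poisson counts, summarises this. For Lck in the control it was 1.08 in all T cells, 1.08 in naive-like CD4, 1.02 in naive-like CD8, 1.12 in Treg-like and 1.11 in memory-like CD8 cells. In the CKO library it was 1.82, 1.74, 1.67, 1.81 and 2.92 in the same order. Lck thus varied more from cell to cell than a Poisson count in the CKO library and nearly as a Poisson count in the control. Cells are not mapped to the 3 mice, so spread between mice and spread between cells cannot be told apart. Ptprc, a gene of similar mean (2.11 and 2.02 UMIs per thinned cell, with 2.18 for Lck in the CKO library), gave 1.41 and 1.35. Lat gave 1.13 and 1.11, and Malt1 1.12 and 1.16, each nearly equal between the libraries.

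**Figure D3:**
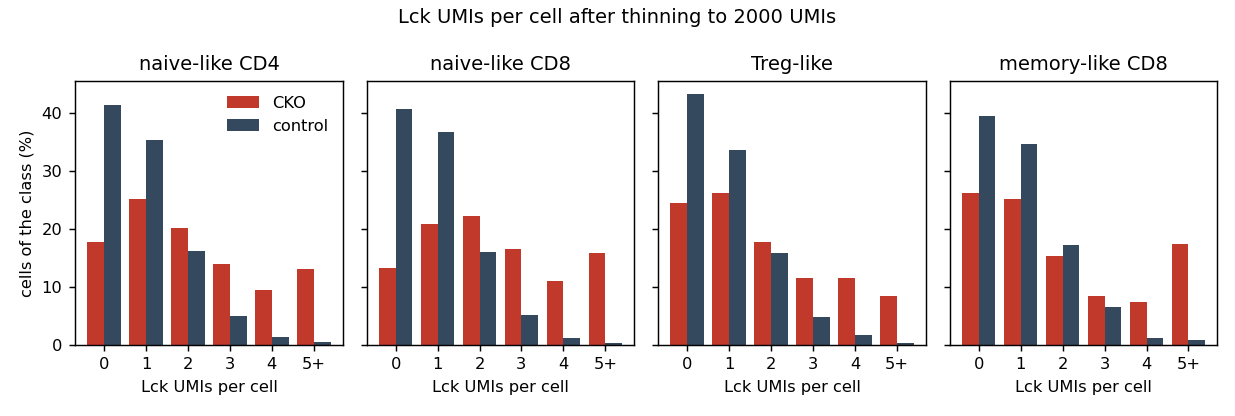
Share of cells (vertical axis, %) by number of Lck UMIs per cell (horizontal axis) after thinning each cell to 2000 UMIs, in 4 classes, CKO and control library. The control bars fall from about 41% at 0, while CKO cells spread to 5 or more UMIs, with 15.9% of naive-like CD8 and 17.4% of memory-like CD8 cells there.

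Cells of the CKO library with a Prmt5 UMI can be set beside those without one. In all T cells the 57 CKO cells with a Prmt5 UMI after thinning held 1.61 Lck UMIs per cell (1.30 to 1.98) and the 7457 without held 2.18 (2.15 to 2.22). In naive-like CD4 cells the means were 1.57 (1.08 to 2.21, 21 cells) and 2.27 (2.22 to 2.31), and in naive-like CD8 cells 2.75 (1.72 to 4.16, 8 cells) and 2.60. In the control library, cells with a Prmt5 UMI held 1.02 and those without 0.920 Lck UMIs per cell. The intervals treat cells as independent counts, which the spread of Lck in the CKO library exceeds, and a cell without a Prmt5 UMI at this depth can still express the gene.

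Malt1 encodes a paracaspase that binds BCL10, and its level was lower in the CKO library in each of 12 T cell classes, by its interval in 9. Treg-like cells held 57.8 CPM (49.9 to 66.5) in CKO and 101 CPM (90.7 to 111) in control, 1.74-fold lower. Memory-like CD4 cells held 104 and 175 CPM (log2 −0.74), and memory-like CD8 cells 94.8 and 151 CPM (log2 −0.67). Effector-like CD8 cells held 105 and 173 CPM from 128 and 62 UMIs (log2 −0.72). These memory-like and effector-like classes stood above the naive classes in both libraries, which were at 66.0 and 90.8 CPM (CD4, log2 −0.46) and 63.8 and 97.1 CPM (CD8, log2 −0.60). Within naive-like CD4 cells the clusters differed. Malt1 was 52.6 and 57.0 CPM in cluster 7 (log2 −0.12, −0.41 to 0.19) and 87.6 and 98.4 CPM in cluster 6 (log2 −0.17, −0.35 to 0.01), intervals that reach equality, and 41.3 and 70.7 CPM in cluster 1 (log2 −0.78, −1.04 to −0.52). The ratio of the whole class thus compares unequal shares of these clusters. Over 21 clusters, Malt1 was lower by its interval in 11, and 3 had a ratio above equality, with no interval off it.

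In 3 classes the interval of Malt1 reached equality: proliferating-like cells at 75.4 and 80.7 CPM (log2 −0.10), γδ-like cells from 33 and 12 UMIs (log2 −0.98) and NKT-like cells from 9 and 131 UMIs (log2 −0.83). Tnfrsf9 cells had the lowest ratio, 27.9 and 60.7 CPM from 31 and 44 UMIs (log2 −1.12). B-like cells held 128 CPM (100.2 to 161) and 153 CPM (118 to 195) from 72 and 65 UMIs, an interval that reaches equality (log2 −0.76 to 0.25). Malt1 after thinning was found in 12.0% (11.2 to 12.7) of CKO and 17.6% (16.6 to 18.5) of control T cells, and in 30.5% and 42.2% without thinning. Over all T cells its 12 alternative values of log2 ratio lay between −0.70 and −0.60.

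**Figure D4:**
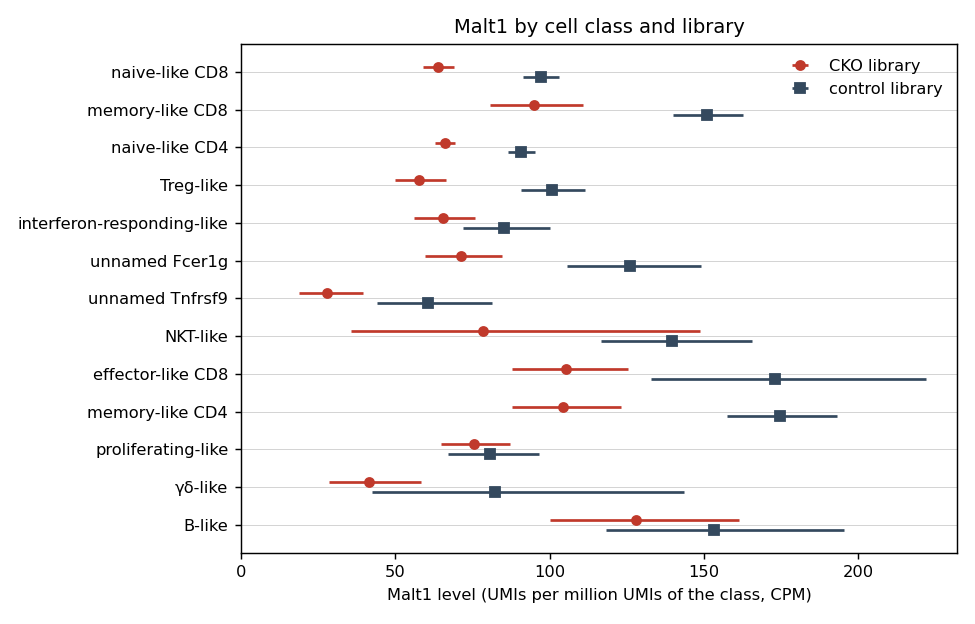
Malt1 level in CPM (horizontal axis, from 0) by cell class (vertical axis) in the CKO library (circles) and the control library (squares), with exact 95% Poisson intervals. The CKO point lies left of the control point in the 12 T cell classes and in B-like cells, closest in proliferating-like cells (75.4 and 80.7 CPM).

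The kinases Fyn, Zap70 and Prkcq stayed within 1.5-fold in all classes with 1 exception. Fyn ranged from a log2 ratio of −0.39 in effector-like CD8 cells (266 and 349 CPM) to 0.48 in Tnfrsf9 cells (249 and 178 CPM), and effector-like CD8 cells had its highest level in both libraries. Zap70 ranged from −0.28 in Treg-like cells (102 and 124 CPM, the class whose interval is off equality) to 0.35 in γδ-like cells (209 and 164 CPM, from 166 and 24 UMIs). Prkcq reached −0.73 in γδ-like cells from 72 and 22 UMIs, an interval that holds equality. In naive-like CD8 cells Prkcq was 152 and 169 CPM (log2 −0.15, −0.25 to −0.05) and in naive-like CD4 cells 166 and 165 CPM.

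Among the scaffolds and the lipase, Lat was higher by its interval in 7 of 12 classes and lower in 1, the proliferating-like cells at 491 and 548 CPM (log2 −0.16). In γδ-like cells Lat was 729 and 397 CPM (log2 0.88, 0.48 to 1.29), from 578 UMIs in 102 cells and 58 UMIs in 16 cells. Lcp2 was 129 and 157 CPM in Treg-like cells (log2 −0.29, −0.47 to −0.10) and 148 and 85.5 CPM in Tnfrsf9 cells (log2 0.79, 0.36 to 1.24, from 165 and 62 UMIs). Plcg1 was the least counted member. In effector-like CD8 cells it stood at 29.6 and 89.4 CPM (log2 −1.59, −2.32 to −0.86), from 36 UMIs in 32 of 147 cells and 32 UMIs in 21 of 45 cells. In naive-like CD4 cells Plcg1 was 37.8 and 43.4 CPM (log2 −0.20, −0.34 to −0.06).

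The phosphatase gene Ptprc followed no common direction: it was higher by its interval in 5 classes and lower in 3 of 12. Memory-like CD8 cells held 1153 and 959 CPM (log2 0.27) and naive-like CD8 cells 1057 and 949 CPM (log2 0.16). Memory-like CD4 cells held 972 and 1267 CPM (log2 −0.38) and effector-like CD8 cells 1218 and 1547 CPM (log2 −0.34). The memory-like CD4 value compares different clusters, and clusters 11.1 and 11.3 gave log2 −0.27 and 0.02. The Fcer1g cells had 1453 and 1313 CPM.

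Over all T cells, the rest of the pathway stood close to equality. The lists held 82 other genes of coreceptors, regulators of LCK, adaptors and the NF-κB, Ras-MAPK and calcium-NFAT branches. Of these, 69 were measured and 0 were past 1.5-fold in all T cells, beside the 1.42% of all measured genes. In naive-like CD4 cells 0 of 66 were past it, and in naive-like CD8 cells 1 of 66, Nfkbia. In Treg-like cells 1 of 72 was past it upward and 2 downward, among them Nfatc1. The shares of all measured genes past it in these classes were 1.54%, 2.34% and 4.58%, so nothing is read from these counts. In all T cells the median log2 ratio of the 69 was −0.01, beside 0.05 for all measured genes. By interval 16 of the 69 were higher (23.2%) and 24 lower (34.8%), where 43.2% of all measured genes were higher and 19.7% lower. The counts by interval that follow for each list are to be read beside those shares. The lists were drawn up with earlier results of these data known.

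Among the regulators of LCK, 3 of 14 measured genes were higher and 8 lower by interval, with a median of −0.10. Csk, the inhibitory kinase, was higher (log2 0.26), while Ptpn22, a phosphatase that acts on LCK, was lower (log2 −0.53), as was the ubiquitin ligase gene Cblb (log2 −0.22). Of the 6 coreceptor genes, 2 were higher and 2 lower. Cd8a and Cd8b1 stood at log2 −0.44 and −0.29 over all T cells, beside fewer CD8 cells in the CKO library. Within naive-like CD8 cells Cd8a was 362 CPM in CKO and 361 CPM in control cells, and Cd8b1 was 1093 and 1009 CPM. Cd5, an inhibitory coreceptor, was at log2 0.18. Among the 4 receptor chains, Cd3d was at 0.06, Cd3g at 0.03 and Cd3e at −0.10.

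Adaptors had 3 higher and 5 lower of 15 measured, led by Sla2 (0.28), which dampens receptor signalling, Grap (0.26) and Hcls1 (0.12). The NF-κB branch had 4 higher and 2 lower of 12. Its inhibitor Nfkbia was higher (0.39), while Tnfaip3, the deubiquitinating enzyme A20, was lower (−0.39), as was the NF-κB subunit gene Rel (−0.20). In the Ras-MAPK branch, with 3 higher and 3 lower of 11, Rasgrp1 was at 0.18, Dgka, which removes diacylglycerol, at −0.36 and Map2k1 at −0.20. The calcium-NFAT branch had 1 higher and 4 lower of 11, with Nfatc1 at −0.30, Itpr2 at −0.24 and Ppp3r1 at −0.15.

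Relatives of the members were mostly below the minimum level. Among Src, Syk and Tec family genes, the Tec family kinase gene Txk was measured and stood at log2 −0.05, lower by its interval. Of 7 other protein kinase C genes 4 did, with Prkcd at 0.31, Prkca at −0.21 and Prkch at −0.18. Plcg2, the relative of Plcg1, was below the minimum level. Of 12 genes that receptor signalling induces, 8 were measured, 2 higher and 3 lower, with Tnfrsf9 at 0.43, Nr4a3 at −0.52 and Egr1 at −0.26.

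**Figure D5:**
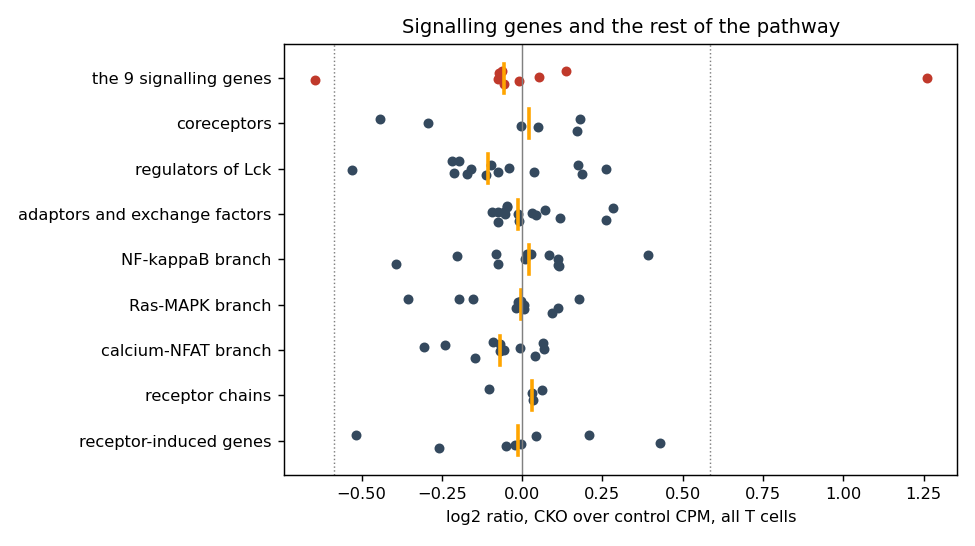
Log2 ratio of CKO over control CPM in all T cells (horizontal axis) for the 9 genes and for the measured genes of 8 lists (vertical axis, points spread at random within a row), with the median of each row as an orange bar and 1.5-fold as dotted lines. Lck at 1.26 and Malt1 at −0.65 are the points outside the dotted lines.

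Genes beside Lck on the chromosome did not share its ratio. The 3 nearest genes on either side with a mean of 5 CPM or more were Bsdc1 (log2 0.37), Marcksl1 (0.10) and Hdac1 (0.26), and Eif3i (0.07), Tmem234 (0.16) and Iqcc (−0.11), with 0 of 6 past 1.5-fold. Over the neighbours of all 9 members by this rule, 2 of 54 were past it, beside 2.49% of all genes at that minimum. They were Itih5 for Prkcq (0.78) and Gm19705 for Ptprc (0.61), named after their values were seen. Neighbours by this rule can lie far off: Itih5 ends at chr2:10256529 and Prkcq starts at chr2:11172108.

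The genes whose pattern was most like that of Lck were sought over 18 sums, 9 T cell classes in each library, among 5019 genes, by Pearson's r of log2(CPM + 1). The 9 classes share a library and its depth, so r is a description. The sums span both libraries, so r also follows the difference in Lck on which the set was selected. A high r can thus come from a difference between the libraries alone, and a low r from the lack of one. Krit1 came first with r = 0.94, at 201 and 123 CPM in all T cells. Cnot3 followed with 0.87 (86.4 and 58.9 CPM), Gm5914 with 0.83 (38.8 and 22.9 CPM), Cdk5rap1 with 0.82 (32.7 and 16.1 CPM) and Ttc5 with 0.81 (55.6 and 37.1 CPM). The other members had r from −0.37 for Zap70 to 0.34 for Prkcq.

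The remaining members lie on mm10 at chr10:39368855-39565381 (Fyn, plus strand), chr1:36761798-36782818 (Zap70, plus), chr7:126363824-126369570 (Lat, minus), chr11:34046920-34092295 (Lcp2, plus), chr2:160731300-160775760 (Plcg1, plus), chr2:11172108-11301222 (Prkcq, plus) and chr1:138062861-138175708 (Ptprc, minus). Malt1 lies on chromosome 18, plus strand. GENCODE vM21 lists genes on the opposite strand that overlap Fyn, Zap70, Lcp2, Plcg1 and Prkcq, and a gene on the same strand that overlaps Lck, Lat, Prkcq and Ptprc. The strand setting of the counting is not given in the sources used here, so reads of such partners cannot be told apart from those of the member.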

How the data were processed

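The deposited matrices hold raw counts of UMIs per gene and cell barcode. Cell Ranger 3.1.0 is named as their source, per the file headers and the submitters' processing notes. CASAVA 1.8, Seurat 2.3.4 and mm10 are listed in the notes without roles. Cells were kept if 500 genes or more were detected and mitochondrial UMIs were under 10%. Scrublet called 0 doublets, so it has not worked and doublets remain. Both libraries were clustered together in scanpy 1.11.5 (2000 variable genes, 30 components, 15 neighbours, Leiden resolution 1), and clusters that mixed classes were divided again (15 components, resolution 0.8). Names came from fixed markers with thresholds set after the clusters were seen, so other names would move cells between classes. T cells are all kept cells but the B-like and myeloid-like ones.

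UMIs were summed per class and library. With 1 library per group there is no test. Levels carry exact Poisson, ratios exact conditional binomial and shares exact Clopper-Pearson intervals at 95%, computed in scipy 1.17.1. The ratio intervals were run on simulated Poisson counts. Those lack the extra spread of Lck between CKO cells, so the run checks the code and not the fit to these data. Thinning drew 2000 UMIs per cell. Named were all 9 members, Prmt5, the neighbours of Lck, the 5 genes most like it, and up to 3 genes per list with the largest log2 ratio and an interval off 0. Some genes of the lists are not reported here by name. Members and lists were chosen with earlier results of these data known. Positions came from GENCODE vM21 and promoter windows from RefSeq.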

Additional observations from a re-analysis of the deposited data

Results flagged for a closer look

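For 4 members, the difference between the libraries ran in opposite directions in different cell classes, each with an interval off equality. The differences between classes were not tested, and the classes shown are the extremes of 12. Fyn had a log2 ratio of 0.48 in the unnamed Tnfrsf9 cells and −0.39 in effector-like CD8 cells. Lat had 0.88 in γδ-like cells and −0.16 in proliferating-like cells, where the control held 16 γδ-like cells and 11 of their 58 Lat UMIs came from 1 cell. Lcp2 had 0.79 in Tnfrsf9 cells and −0.29 in Treg-like cells. Ptprc had 0.27 in memory-like CD8 cells and −0.38 in memory-like CD4 cells. The memory-like CD4 class compares different clusters. In clusters 11.1 and 11.3, which were well filled in both libraries, Ptprc had −0.27 (−0.51 to −0.03) and 0.02 (−0.20 to 0.24).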

How the results depend on the processing

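Lck remained higher in the CKO library under every alternative run. The log2 ratio in all T cells was 1.21 with median-of-ratios size factors, 1.21 (1.205) with mitochondrial and ribosomal protein genes left out of the total, 1.28 in cells gated on Cd4, Cd8a, Cd8b1 and Foxp3 UMIs, 1.34 in cells with Y-linked UMIs and 1.19 in cells with Xist UMIs. In the same order, leaving out the gates, it was 1.36, 1.36, 1.45 and 1.34 in naive-like CD4 cells. These cells also gave 1.33 as a mean over cells and 1.31 (1.315) after thinning. The gates used no naive marker, so they can hold memory and effector cells too. Cells with a Cd4 UMI and no Cd8a, Cd8b1 or Foxp3 UMI (2300 CKO and 1809 control cells) gave 1.23. Naive-like CD8 cells gave 1.43 with size factors, 1.44 without mitochondrial and ribosomal protein genes and 1.43 in Xist cells. They gave 1.59 (1.595) for cells with 1000 or more genes and mitochondrial UMIs under 5%. Cells with a Cd8a or Cd8b1 UMI and no Cd4 or Foxp3 UMI (1942 CKO and 2310 control cells) gave 1.40. Treg-like cells gave 1.49 with that stricter cell filter, and cells with a Foxp3 UMI gave 0.95.

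Alternatives for memory and effector classes were chosen after seeing the data. Memory-like CD8 cells gave 1.28 with size factors, 1.27 without mitochondrial and ribosomal genes, 1.51 clustered without the lists, 1.23 (1.225) in Y-UMI cells, 1.46 (1.465) in Xist cells and 1.25 after thinning. No such class formed at Leiden resolution 0.5 or with the stricter filter. Effector-like CD8 cells gave 0.69 after thinning, and memory-like CD4 cells 0.04 to 0.20. The cause of these moves was not tested. The main value in memory-like CD4 cells was 0.16 (0.03 to 0.29), and the alternatives carry no intervals. Whether Lck stays above equality by interval in that class is thus not known. Past 2-fold the count of members was 1. Shares of T cells with an Lck UMI were 60.8% and 36.4% at 1000 UMIs and 96.2% and 91.8% without thinning. Of 96 values for the other 8 members, 74 stayed within the counting interval and Ptprc reversed to −0.0020 with mitochondrial and ribosomal protein genes left out of the total. Lcp2, whose interval holds equality, went from −0.01 to 0.01 in Xist cells. Lat ranged from 0.03 to 0.23.

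No paired analysis was possible because each group is 1 library, and leaving out a replicate was impossible for the same reason. Few cells in 1 library stand behind the γδ-like (16), NKT-like (15) and effector-like CD8 (45) values, and few UMIs behind Prmt5 and Plcg1 in small classes. Other library differences between the 2 samples cannot be told apart from the genotype.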
